A study of Saccharomyces cerevisiae with 4 samples.

Results

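The regions described here are 418 of the 1430 Arp4 peaks in a deposited list from budding yeast, those whose summit lay in the 3′-half of a protein-coding gene. A peak was taken when its summit fell inside a gene, at least 200 bp from the annotated start, past the midpoint of the annotated length and in no RNA gene. Where genes overlapped, the longest was used. The 418 summits lay in 407 of 6002 protein-coding genes (6.78%). They were chosen by the position of the summit, so where they lie relative to the start and the midpoint is not a result. Their distance to the gene end, their neighbours, their fold enrichment and the kinds of gene that held them are described below.

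The samples were wild-type Saccharomyces cerevisiae in mid-log growth at 30°C in rich medium. In 2 samples Arp4 carried a 3Flag tag, and 2 samples had no tag. Sonicated nuclei of both kinds went through the same anti-Flag ChIP; the labels do not say whether the 2 samples of a kind were separate cultures. What was analysed is 1 list of peaks without a column for any sample, so no value below has a replicate error, depth is not known and the untagged cells have no value here. No test between cultures could be made. Counts and medians are therefore described beside the same measure over all peaks, all genes or all bases that met the rule.

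Arp4 is an actin-related protein of the nucleus. It is a shared subunit of the histone acetyltransferase NuA4 and of the chromatin remodelling complexes SWR1 and INO80, which act largely on nucleosomes next to gene starts. Yeast genes are closely packed. Where a gene is followed by another on the same strand (tandem), the end of the first lies just upstream of the start of the second. Where the next gene points back at it (convergent), its end faces another end and a start is seldom near. A summit near the end of a gene can therefore lie in the upstream region of the next gene, and the question put to these summits was which do and which do not.

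The fold enrichment and q of a peak are those the authors' peak caller wrote, and they are used here for description and ranking alone. The 418 summits were of low enrichment. Their median fold was 1.57 and their range was 1.17 to 3.09, against a median of 1.66 and a maximum of 6.32 over all 1430 peaks. Of the 418, 52 had a fold of 2 or more (12.4%), against 24.2% of all peaks. Summits in the 5′-half of genes, also at least 200 bp inside, were lower still, with a median of 1.46 over 199 summits and 7 of at least 2. Those in the first 200 bp of genes were higher, with a median of 1.82 over 370. The median peak width was 380.5 bp in the 3′-half and 359 bp over all peaks.

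Per length of sequence the 3′-half held more summits than the 5′-half and fewer than gene starts. There were 95.9 summits per Mb of 3′-half sequence, 61.4 per Mb of 5′-half sequence and 315 per Mb in the first 200 bp. At the 200 bp limit, the nearest summits inside were 205 bp from the start of YLR236C (fold 1.65) and of GON7 (1.49), and the nearest outside were 197 bp from the start of RPP2B (1.95) and 196 bp from that of RPS20 (1.71). At the midpoint, the nearest inside was in ELP2, at 50.2% of its length (fold 1.39), and the nearest outside was in TIF4631, at 49.5% (1.36).

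The summits gathered a short way before the annotated end of the gene. The median distance to the end was 219 bp and the middle 50% of summits lay between 151 and 342 bp. From 100 to 300 bp before the end lay 248 of 418 summits (59.3%), against 24.3% of all 3′-half bases. The density was 293 per Mb at 150 to 199 bp before the end and 297 per Mb at 200 to 249 bp, and it was 59.4 per Mb at 400 to 499 bp and 27.2 per Mb at 700 to 999 bp. In the last 50 bp it was 31.4 per Mb, with 9 summits. The 3′-half of a short gene reaches no further than the limit of its own midpoint, so the same was counted in genes of at least 1000 bp. There the density was 175 per Mb at 150 to 199 bp before the end, 59.2 at 400 to 499 bp and 28.2 in the last 50 bp, over 233 summits with a median distance of 290 bp.

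**Figure D1:**
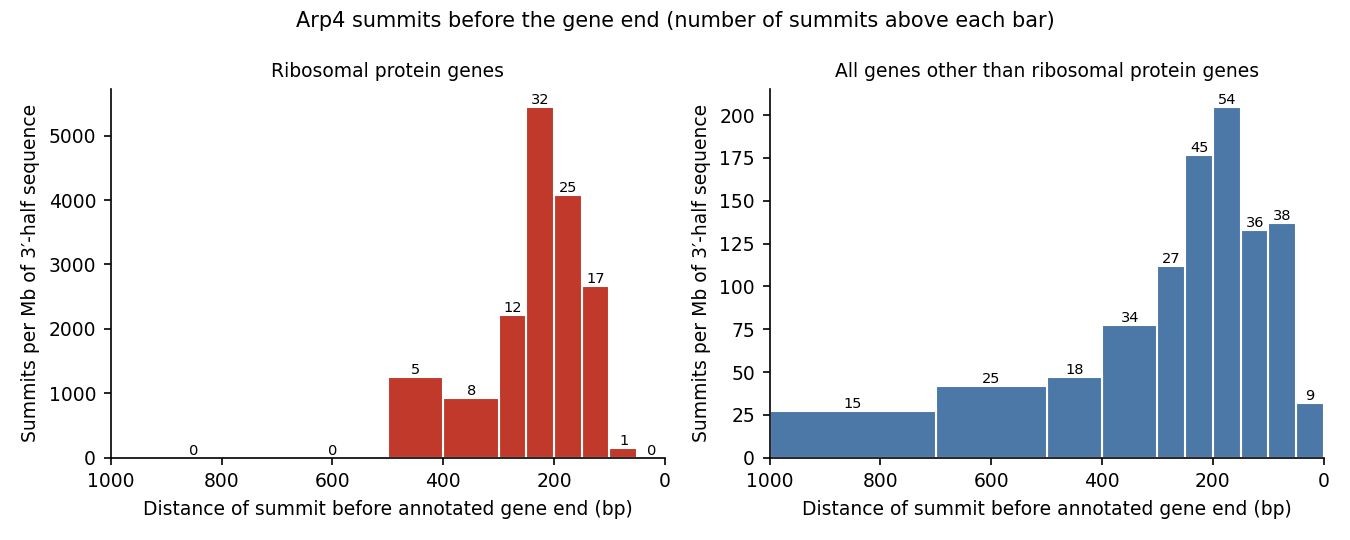
Arp4 summits per Mb of 3′-half sequence (y axis) against the distance of the summit before the annotated gene end in bp (x axis, gene end at the right), for ribosomal protein genes (left) and all other genes (right), which have different y scales. The number above each bar is its count of summits; the bar of greatest density is at 200 to 249 bp with 32 summits on the left and at 150 to 199 bp with 54 on the right.

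Upstream regions were taken as the 500 bp before the annotated start of another protein-coding gene. Of the 418 summits, 73 lay in one (17.5%, Wilson 95% interval 14.1 to 21.4, counting error only) and 345 did not. Over all 3′-half bases the share in such a region was 7.55%, so the summits' share was more than the bases' share. In the 5′-half the corresponding shares were 1.51% of summits and 1.58% of bases. The 73 summits lay upstream of 73 different genes, which is 1.22% of all genes. The neighbour was the next gene on the same strand for 66 of them and another gene for 7. Starts on either strand counted. For some of the 7, such as UTR5 beside HYP2 and MOG1 beside OPI3, the neighbour's start lay beyond the start of the host and not beyond its end.

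Part of that difference went with the distance to the gene end, since bases nearer to the end are more often upstream of a neighbour. Within 100 bp of the end, 20 of 48 summits were upstream of a neighbour (41.7%), against 28.7% of the bases there. From 100 to 199 bp before the end the shares were 30.3% of 132 summits and 20.1% of bases. From 200 to 299 bp they were 9.48% of 116 summits and 8.83% of bases. The Wilson 95% interval of the summits' share was 28.8 to 55.7% within 100 bp, 23.1 to 38.6% from 100 to 199 bp and 5.38 to 16.2% from 200 to 299 bp.

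The 73 summits lay toward the far side of the upstream region, as did the 3′-half bases in such regions. Their median distance to the neighbour's start was 420 bp, with 43 more than 400 bp away, 22 more than 300 and up to 400 bp, 6 more than 200 and up to 300 bp and 2 within 200 bp. These distances are largely set by the rule, since the gap between the genes mostly separates a summit inside a host from the neighbour's start. Of the 328950 3′-half bases in such a region, 35067 were within 250 bp of the start, as were 3 of the 73 summits. The limit of 500 bp cut through the distribution of the summits, and a further 80 summits lay more than 500 and up to 700 bp upstream of a start. The closest was in RPA14, a subunit gene of RNA polymerase I, 43 bp before the start of the overlapping gene YDR157W (fold 1.64). The next was in YLR111W, 126 bp before YLR112W (fold 1.95). At the 500 bp limit, the last inside was in MOG1, 493 bp before OPI3 (fold 1.28), and the first outside was in BRP1, 511 bp before YGL007C-A (fold 2.04).

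Summits upstream of a start lay nearer to the end of their gene, with a median of 139 bp against 236 bp for the others; the window of 500 bp itself favours bases near the end. By the gap to the next gene the medians were less far apart over all hosts. Among the 246 summits with a tandem next gene, the median distance to the gene end was 198.5 bp where the gap to the next gene was under 250 bp, 206 bp where it was 250 to under 500 bp and 235 bp where it was 500 bp or more. Over the same bins the median distance to the nearest start, on either strand, that the summit was upstream of went from 400 to 575.5 and 948.5 bp. That rise largely follows from the bins, since the distance to the start of a tandem next gene includes the gap. Among the 172 summits with a convergent next gene, the medians to the end were 228, 220.5 and 209 bp. They were further apart in hosts of at least 1000 bp. There the tandem medians to the end were 399 bp over 11 summits, 246 bp over 71 and 255 bp over 51. The convergent ones were 324 bp over 47, 293 bp over 41 and 385 bp over 12.

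**Figure D2:**
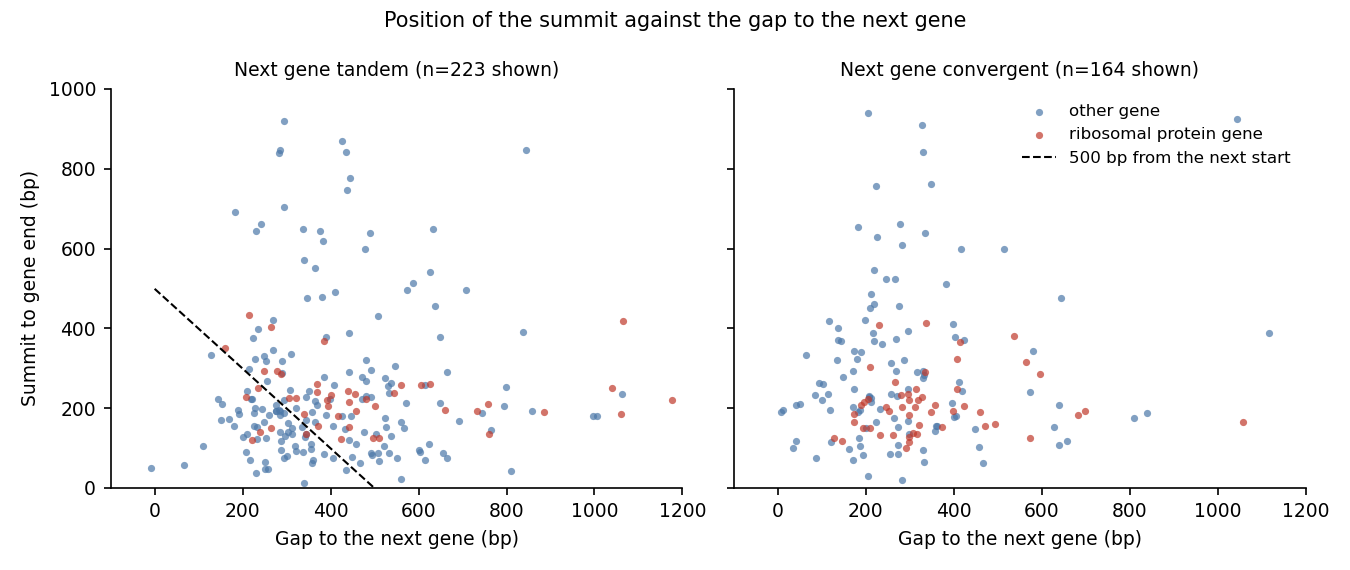
Distance from the summit to the annotated end of its gene (y axis, bp) against the gap between that gene and the next (x axis, bp), with the next gene tandem (left, 223 of 246 summits shown) or convergent (right, 164 of 172 shown). Summits with a gap of 1200 bp or more or over 1000 bp from the end are not drawn, red points are ribosomal protein genes, and points below the dashed line are within 500 bp of the next start. In both panels the points are densest at 100 to 300 bp from the end.

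More genes with a tandem next gene held a summit than genes with a convergent one. A tandem next gene follows 48.3% of all genes and was present for 58.9% of the summits. A 3′-half summit lay in 238 of 2898 genes with a tandem next gene (8.21%) and in 169 of 3081 with a convergent one (5.49%), or 119 against 76.3 summits per Mb. Without ribosomal protein genes the densities were 96.6 and 54.3 per Mb. By the gap to the next gene (under 250 bp, 250 to under 500 bp, and 500 bp or more), tandem genes had 131, 122 and 110 per Mb and convergent genes 59.2, 108 and 68.4 per Mb. Without ribosomal protein genes the same bins had 110, 99.0 and 87.4 per Mb for tandem genes and 48.7, 66.8 and 48.1 per Mb for convergent ones, lower than the tandem value in every bin. Of the summits not within 500 bp upstream of another start, 169 had a convergent next gene and 176 a tandem one. These 2 are counts and not densities. The 3′-half sequence, upstream regions included, was 2253730 bases for convergent and 2063981 for tandem genes.

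The summits upstream of a neighbour had a slightly higher median fold than the others and a larger share of folds of at least 2. The median was 1.62 for the 73 upstream of a start (range 1.18 to 2.77) and 1.56 for the 345 others (range 1.17 to 3.09). The share with a fold of at least 2 was 19.2% (14 of 73) and 11.0% (38 of 345). The mix of genes was different on each side, because ribosomal protein genes held 94 of the 345 and 6 of the 73. Without them the medians were 1.59 and 1.5 and the shares 13.4% and 5.98%. The 6 ribosomal protein genes followed closely by a start had folds of 1.74 to 2.54 with a median of 2.19, and the 94 others had a median of 1.77. The upstream summits also lay nearer to the gene end (median 139 against 236 bp) and in shorter hosts (median 828 against 1158 bp). With both sides together, the median fold was 1.67 in hosts under 1000 bp and 1.51 in hosts of 1000 bp or more. In the latter it was 1.57 upstream and 1.51 not. Fold was not compared at like distance to the end.

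**Figure D3:**
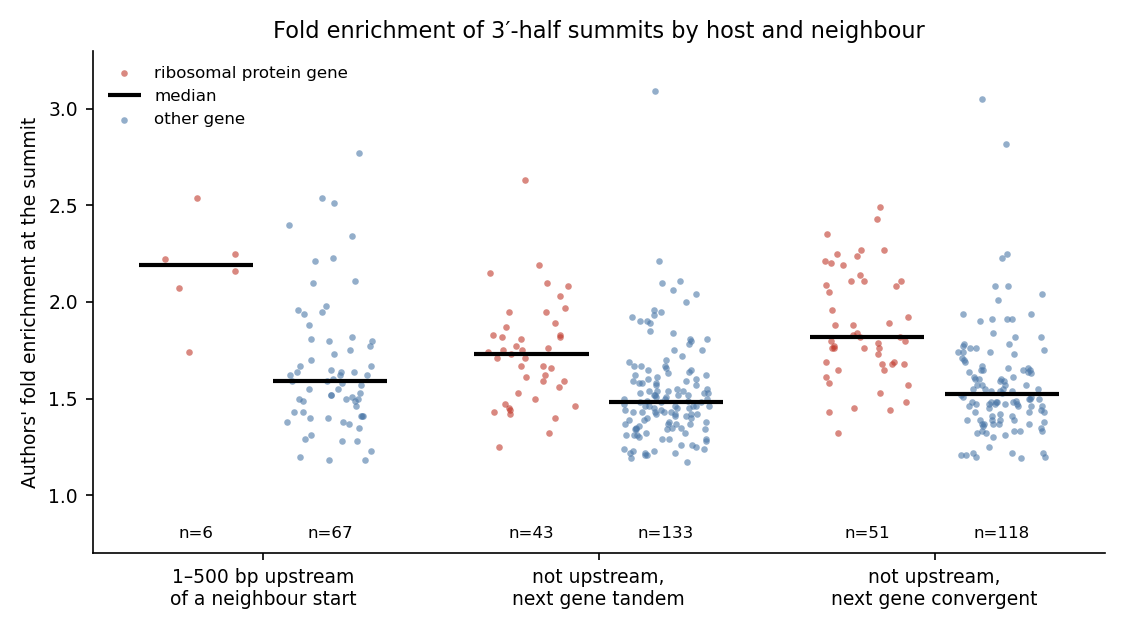
Authors' fold enrichment at the summit (y axis) for 3′-half summits that lie 1 to 500 bp upstream of a neighbouring start, or not, the latter by the orientation of the next gene; each point is 1 summit and black lines are medians. Ribosomal protein genes (red) have a higher median than other genes (blue) in all 3 columns, and the points of the columns overlap over most of their range.

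Of the summits upstream of a neighbour, the one of highest fold was in YDL186W (2.77, chromosome IV, 126136 to 126485). It lay 91 bp before the end of that gene and 429 bp upstream of VMA1, which encodes the catalytic subunit of the vacuolar proton pump. RTC4 held a summit 46 bp before its end and 299 bp upstream of GIS2, the gene of a zinc-finger protein that binds RNA (fold 2.54, chromosome XIV, 167370 to 168243). BMT6, encoding a methyltransferase of 25S ribosomal RNA, held one 330 bp upstream of PER33 (2.51, chromosome XII, 264980 to 265266). These 3 neighbours had no summit at their own start, but the RTC4 peak itself extended past the start of GIS2.

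DYN2, the dynein light chain gene, held a summit 218 bp upstream of CAD1, which encodes a transcription factor of the AP-1 type (2.40, chromosome IV, 1319077 to 1319611). OAR1, an enzyme gene of mitochondrial fatty acid synthesis, held one 482 bp upstream of TMA19 (2.34, chromosome XI, 335287 to 335757). In TFA1, which encodes a subunit of the general transcription factor TFIIE, the summit was 466 bp upstream of TCD2 (2.23, chromosome XI, 386971 to 387214). MET16, of sulfate assimilation, held a summit 71 bp before its end and 289 bp upstream of MRP2, a mitochondrial ribosomal protein gene (2.21, chromosome XVI, 876798 to 877214). BUD20, whose product acts in export of the large ribosomal subunit, held one 487 bp upstream of RFU1 (2.11, chromosome XII, 281901 to 282415). The distances to the gene end for these 5 were 71 to 152 bp.

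Ribosomal protein genes were the hosts of the other 4 among the 12 highest. RPS22B (2.54) preceded MDM30 by 342 bp, RPL37A (2.25) preceded the ribosome assembly gene EMG1 by 479 bp, RPS13 (2.22) preceded RRG1 by 485 bp and RPL28 (2.16) preceded YGK1 by 417 bp, each distance being from the summit to the neighbour's start. The RPL28 peak had the highest −log10 q of the 12, 83.5 (chromosome VII, 311518 to 311939). The others of the 12 had a −log10 q of 31.7 to 66.5.

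Few of the neighbours had a summit counted at their own start. A gene was counted as having a summit at its start if one lay in the first 200 bp of the gene or in intergenic DNA within 500 bp upstream. That held for 8 of the 73 neighbours (11.0%), against 12.1% of all genes, but these shares are not like for like. By the choice of neighbours, the host gene fills part of the 500 bp upstream, and a summit in the host was not counted. Where the next gene was tandem, the median gap was 259.5 bp for the upstream summits, against 394 bp for all genes. The 8 were TMA19, EMG1, RFU1, PWP2, DMA2, RSM28, BUD21 and YER145C-A. EMG1 had the highest fold at the start (3.00, against 2.25 at the summit in RPL37A). The peak itself reached across the end of its own gene in 37 of the 73 cases. It reached as far as the neighbour's start in 5, the peaks in RTC4 and DYN2 among them.

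The neighbours were spread over several lists, in small numbers. Of the translation factor genes, DED1 (an RNA helicase of initiation) had a summit 384 bp upstream in HIS3 (fold 1.94, chromosome XV, 722070 to 722622), HYP2 (the factor eIF5A) had one 403 bp upstream in UTR5 (2.10) and TIF2 (the helicase eIF4A) had one 368 bp upstream in GLG2 (1.52). The ribosome biogenesis genes CBF5 (444 bp, in IDP2, 1.96), PWP2 (380 bp, in YIH1, 1.98), UTP30 (479 bp, in TIF1, 1.80) and KRR1 (367 bp, in FYV5, 1.41) also had one. In all, 3 of 43 translation factor genes, 4 of 109 ribosome biogenesis genes, 4 of 68 mitochondrial ribosomal protein genes (IMG1, MRP13, MRP2 and RSM28) and 1 of 138 ribosomal protein genes were such neighbours, beside 1.22% of all genes. These counts are too small to set the lists apart. ARP4 itself was a neighbour, with the summit in the 3′-half of SCP160, 192 bp before its end and 479 bp upstream of ARP4 (fold 1.23, −log10 q 1.51, chromosome X, 285671 to 285972).

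Of the summits not upstream of a neighbour, the one of highest fold was in NSR1, which encodes a nucleolin-like protein of ribosomal RNA processing (3.09, −log10 q 133, chromosome VII, 806403 to 807635). It lay 182 bp before the gene end, and the next start, that of MTR3, was 573 bp away, just past the limit. DBP2, an RNA helicase gene, had a summit 118 bp before its end (3.05, chromosome XIV, 416000 to 416289), with a convergent gene 658 bp beyond. MFT1, encoding a subunit of the THO complex of transcription and RNA export, had one 84 bp before its end (2.82, chromosome XIII, 147445 to 147692). Its convergent neighbour is the ribosomal protein gene RPS1B. None of these 3 hosts had a summit at its own start. The NSR1 peak, however, was 1233 bp wide in a gene of 1245 bp, so it covered most of the first 200 bp too.

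TIS11, which encodes an RNA-binding zinc-finger protein, was the one other gene outside the ribosomal proteins among the 12 highest (2.25, chromosome XII, 415763 to 416274). The rest were RPL30 (2.63, chromosome VII, 439364 to 439644), RPL31A (2.49), RPL40A (2.43), RPS17A (2.35), RPL35B (2.27), RPL33A (2.27), RPS7A (2.25) and RPL33B (2.24). Their summits lay 123 to 304 bp before the gene end. All but RPL30 had a convergent next gene.

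Ribosomal protein genes were the list with the greatest share of hosts. A 3′-half summit lay in 100 of 138 (72.5%, against 6.78% of all genes), and these were 100 of the 418 summits. Large subunit genes had one in 59 of 76 cases, small subunit genes in 38 of 56 and stalk genes in 2 of 5. Per length of sequence the list had 1970 summits per Mb of 3′-half and 200 per Mb of 5′-half, from 100 and 5 summits. The folds ran from 1.25 to 2.63 with a median of 1.78. Distances to the gene end ran from 99 bp in RPL43A to 434 bp in RPL4B, with a median of 207 bp and 86.0% of them from 100 to 300 bp.

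Most ribosomal proteins are encoded by a pair of similar genes, whose reads can be hard to assign, and how such reads were treated is not given in the sources used here. Of 59 pairs, both copies held a 3′-half summit in 36, 1 copy in 11 and neither in 12. Where both did, the copies' folds differed by a median of 0.142 on the log2 scale (maximum 0.554) and their distances to the gene end by a median of 21 bp. Of the 38 genes without one, 16 were under 400 bp long, which leaves little or no sequence that could meet the rule, and 2 of the 100 with one were that short. Among the 38, 23 had a summit at the start.

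The same genes often carried a stronger summit at the start. Of the 100 ribosomal protein hosts, 57 had a summit at the start (57.0%), against 14.3% of the 307 other hosts and 12.1% of all genes. This was not particular to hosts, as 80 of all 138 ribosomal protein genes had one, among them 23 of the 38 without a 3′-half summit. Where both were present, the start had the higher fold in 56 of 57 ribosomal protein genes, with medians of 3.39 at the start and 1.82 in the 3′-half. In the 44 other genes with both, it was higher in 36, with medians of 2.06 and 1.53. By the rule for starts, the same intergenic summit could count for genes on either side of it. RPL39 and RPS22A had the same start fold (3.39), as did RPS16B and RPL13A (2.48). SLX8, among the 44, had the same start fold as RPL23B (4.03). The start values of the 57 and the 44 are therefore not all from separate summits or particular to the gene. A 5′-half summit was present in 42 of the 407 hosts (10.3%), against 2.73% of all genes. Thus 306 of 407 hosts had no summit at the start, though a wide peak with its summit elsewhere can still cover a start.

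**Figure D4:**
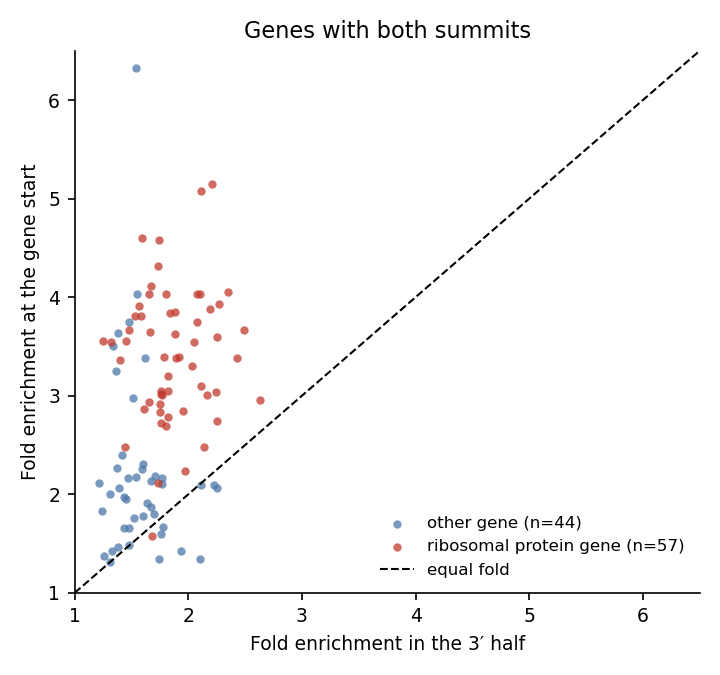
Fold enrichment at the gene start (y axis) against the highest fold in the 3′-half of the same gene (x axis) for the 101 hosts with both, 57 of them ribosomal protein genes; both are the authors' values and the dashed line marks equal fold. The start is higher in 92 of the 101. A start summit in intergenic DNA can count for genes on either side, so not every point has a separate start summit.

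Other lists of the protein synthesis and growth machinery also had more hosts than genes at large. Glycolysis and fermentation genes had 11 of 24 (45.8%), translation factors 18 of 43 (41.9%), aminoacyl-tRNA synthetases 6 of 20 (30.0%), plasma membrane and cell wall genes 9 of 33 (27.3%), chaperones 9 of 35 (25.7%) and ribosome biogenesis genes 19 of 109 (17.4%), each beside 6.78% of all genes. These lists include genes known to be heavily transcribed in rich medium. Transcription was not measured here. Genes in no list had 214 of 5195 (4.12%).

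**Figure D5:**
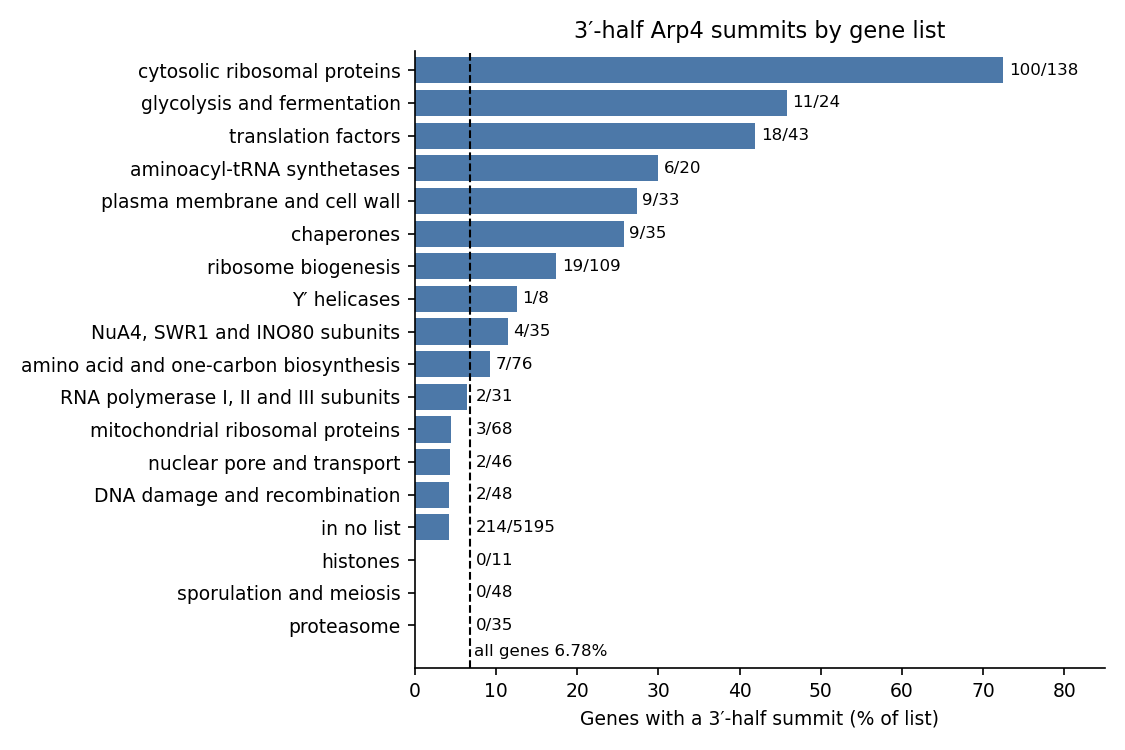
Percent of the genes of each list that hold a 3′-half summit (x axis), with the count of hosts and of genes beside each bar. The dashed line is the 6.78% of all protein-coding genes; 7 lists from ribosome biogenesis (17.4%) to cytosolic ribosomal proteins (72.5%) lie well above it, and histone, proteasome and sporulation genes are at 0.

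Glycolysis genes held 652 summits per Mb of 3′-half sequence (11 summits), against 95.9 over all genes. None lay in their 5′-half sequence, which is only 12084 bases long, so that few would be found there at the 61.4 per Mb of all genes. Each peak also has 1 summit, and some of these peaks covered most of the gene, the 5′-half included. The peak was 1608 bp wide in PDC1 (1692 bp long) and 1231 bp in ENO2 (1314 bp), but 222 bp in TPI1 (747 bp). None of the 11 was upstream of a neighbour, and their median distance to the gene end was 344 bp. The folds were low, from 1.22 in TPI1 to 1.80 in ENO2 with a median of 1.42, and the peaks were wide, with a median of 861 bp. ENO2 (enolase) and PDC1 (pyruvate decarboxylase) both had the summit 644 bp before the end, GPM1 (phosphoglycerate mutase) 209 bp and CDC19 (pyruvate kinase) 370 bp. TDH2 and TDH3, near-identical copies for glyceraldehyde-3-phosphate dehydrogenase, both had a fold of 1.37, so their reads may not be separate, and ADH1 (1.35) and ADH2 (1.60) are also similar in sequence.

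Translation factor genes held them at similar density on both sides of the midpoint, at 550 per Mb in the 3′-half (19 summits) and 541 per Mb in the 5′-half (14). PRT1, of initiation factor eIF3, was highest with 1.89, and its summit lay 1020 bp before the end. The twin genes TEF1 and TEF2, for the elongation factor that carries aminoacyl-tRNA to the ribosome, had folds of 1.82 and 1.81 and −log10 q of 134 and 132 (chromosome XVI, 700715 to 701940, and chromosome II, 477799 to 479008). Their coding sequences are known to be nearly the same, so the 2 peaks may share reads. TIF1 and TIF2, another such pair, had summits 135 bp before the end in both (1.80 and 1.66).

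Ribosome biogenesis genes had 188 summits per Mb in the 3′-half and 126 in the 5′-half. After NSR1 and DBP2 came UTP5, of the small subunit processome (2.11), and CBF5, the pseudouridine synthase (2.08). Of the 19 hosts 1, UTP18, was closely upstream of another start. The plasma membrane and cell wall list had 512 per Mb in the 3′-half (12 summits) and 236 in the 5′-half (4), led by the proton pump gene PMA1 (1.92, −log10 q 91.2) and FKS1 (1.85), of glucan synthesis. Aminoacyl-tRNA synthetase genes had 335 and 59.2 per Mb (7 and 1 summits), led by WRS1 (1.74). Among chaperones HSC82, of the Hsp90 family (2.04), and YDJ1, an Hsp40 (1.90), were highest.

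The remaining lists had 0 to 7 hosts each and lay on both sides of the 6.78% of all genes. Proteasome genes had 0 of 35, sporulation and meiosis genes 0 of 48 and histone genes 0 of 11, while the proteasome and histone lists had summits at the start in 9 and 6 genes. Histone genes are short and had only 2359 bases that met the rule. Mitochondrial ribosomal protein genes had 3 of 68 (4.41%), nuclear pore and transport genes 2 of 46 and DNA damage genes 2 of 48, RNR1 and MEC3. Amino acid biosynthesis genes had 7 of 76 (9.21%), 2 of them, MET16 and HIS3, upstream of a neighbour and with the highest folds of the 7. RNA polymerase subunits had 2 of 31 (6.45%) and the Y′ helicases 1 of 8 (12.5%), YRF1-4 (1.22). Of 35 genes for NuA4, SWR1 and INO80 subunits, 4 were hosts (11.4%): IES5 (1.76), RVB1 (1.67), IES6 (1.52) and SWC5 (1.33).

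Genes in no list showed the gathering near the end as well, at lower density. They had 58.3 summits per Mb in the 3′-half and 51.8 in the 5′-half, against 95.9 and 61.4 over all genes. Within the 3′-half their density was 190 per Mb at 150 to 199 bp before the end (44 summits), 32.9 at 400 to 499 bp and 17.4 at 500 to 699 bp. Several of these genes have the same length of 5269 bp, such as YMR050C and YGR038C-B. Their summits lay 2144 and 2055 bp before the end, and whether their reads are separate is not known. Of the 219 summits in genes of no list, 55 lay within 500 bp upstream of another start (25.1%). The same held for 6 of 100 in ribosomal protein genes and 12 of 99 in the other lists (12.1%).

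A few long genes held more than 1 summit in the 3′-half. They were 10 genes of 1524 bp or more, with a median length of 2840 bp against 1200 bp for all genes. FAS1, for a subunit of fatty acid synthase, held 3, at 638, 1428 and 2126 bp before its end with folds of 1.55, 1.5 and 1.37. FAS2, for the other subunit, held 2, one of which was 2528 bp wide. PMA1 held 2, at 260 and 1159 bp before the end (1.92 and 1.54). The others were CRH1, FKS1, FRS1, FUN12, MIS1, RNR1 and SYG1. FUN12, for translation initiation factor eIF5B, had folds of 1.5 and 1.54 here and 6.32 at its start, and the first of these lay 477 bp upstream of MTW1.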

How the data were processed

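Per the labels, the ChIP used anti-Flag on sonicated nuclei of Arp4-3Flag cells (2 samples) and of cells with no tag (2 samples). The tools named are MACS2, SAMtools 1.4, BWA 0.7.15-r1140 and fastp 0.21.0, per the submitters' processing notes. Not given in the sources used here are their settings, the build, the control, the threshold, the pooling of samples and the treatment of multi-mapping reads. The deposited list gives the authors' fold enrichment (a linear ratio) and −log10 q for each peak (lowest −log10 q 1.31). The deposited score equals 10 times that −log10 q, cut to a whole number, in 100% of peaks, so it was left aside.

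Summits were placed in genes of the RefSeq R64 table, with strand read from systematic names. At the positions as given, 37 summits lay in tRNA genes, against 0 to 4 after shifts of 200 to 1000 bp either way. Coordinates are printed only for peaks and counted from 1. Distances run from the summit to annotated gene ends, as transcript ends were not used. Bases were classed by the rule used for summits, and both methods gave the same class at 4800 of 4800 random positions. Wilson 95% intervals cover counting error only.

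No test was run, because the list has no value per sample. The members and 17 gene lists (407 of 407 typed names matched) were chosen with earlier results of these data known, and so support nothing independently. RPP1 (RNase P) and MRP8, caught by name patterns, were removed from the ribosomal lists after a first look. Named genes are the 12 highest folds on each side of the neighbour rule, up to 4 hosts per list, hosts with 3 or more summits, summits nearest to the start and midpoint limits and genes of Arp4 complexes. Other genes named (hosts with 2 summits, neighbours in a list or with a summit at the start, further glycolysis genes, extremes of a distance, facing pairs) were chosen after their values were seen. Python 3.11.15, numpy 2.4.6, pandas 2.3.3, scipy 1.17.1 and matplotlib 3.10.9 were used.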

Additional observations from a re-analysis of the deposited data

How the results depend on the processing

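In 13 alternatives, 2 of them (without ribosomal protein hosts, and hosts of 1000 bp or more) chosen after seeing the data, 52 of 83 recomputed values stayed within 1.5 times the count or within the 95% interval of the median or share, and 31 moved. With a fold at or above the median, 157 summits were left, 30 upstream of a neighbour (19.1%), in 105 listed genes; the median folds were 1.97 upstream and 1.84 not, and the median distance to the end was 182 bp. With a −log10 q of at least 10, 260 were left, 48 upstream, with medians of 1.76 and 1.73. These filters raise the medians by their construction. With upstream windows of 250, 700 and 1000 bp, 3, 153 and 217 summits were upstream (0.718%, 36.6% and 51.9%), beside 0.805%, 16.1% and 29.0% of 3′-half bases, and the median fold of the 3 was 1.95. With any base of the peak counted, 160 were upstream (38.3%). A whole peak meets a window more easily than 1 base does, and no background share was computed for that setting. The median distance to the end was 232 bp with summits kept at least 100 bp from the end and 250 bp with peak midpoints. With peaks no wider than the 75th percentile, 126 listed genes were hosts. Without ribosomal protein hosts there were 93 listed hosts, and the median fold not upstream was 1.5. In hosts of 1000 bp or more there were 233 summits, 25 upstream (10.7%). The share of bases upstream in such hosts was not computed. The listed hosts were 95, 19 of them for ribosomal proteins, with a median fold not upstream of 1.51 and a median distance of 290 bp.

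The median fold was higher upstream of a neighbour than not in each of these settings except peak midpoints (1.57 against 1.58). The settings share most of their summits, so they are not independent of each other. No paired analysis was possible because the list has no columns per sample, and for the same reason no sample could be left out. The planned search for motifs was not run, as no sequence was at hand. Read depth is unknown, so a gene without a summit is not shown to lack Arp4.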

Other observations

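Facing gene ends sometimes both held a summit. Of the 172 summits with a convergent next gene, 27 (15.7%) had a partner that was a host too, in 13 pairs, and convergent genes were hosts in 5.49% of cases. RPS17A (fold 2.35) faced NSE5 (1.91) over a gap of 296 bp, TIS11 (2.25) faced SLX4 (1.94) over 273 bp and RPS14B (1.83) faced RPS22A (1.79) over 298 bp. RPS3 (1.68) faced MRPL22 (1.84), a gene for a mitochondrial ribosomal protein, over 283 bp. These are separate peaks in the list. Whether they are separate sites was not tested.

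By chromosome, the density of 3′-half summits ran from 54.5 per Mb on chromosome VI (5 summits) to 143 per Mb on chromosome XII (56 summits), with 133 per Mb on chromosome V (26).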
